A study of Mus musculus with 4 samples.

Results

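The genes described here make up the transcriptome of unperturbed regulatory T (Treg) cells of the mouse spleen, read from the 2 wild-type (WT) libraries alone. A gene was included where the mean of the 2 libraries was at least 1 RPKM, that is, reads scaled to transcript length and to the number of mapped reads. For a gene with several transcript rows the row of highest mean was kept. Of 14193 named genes with a row, 10624 met this rule and 3569 did not. The median level of the 10624 genes was 10.9 RPKM, the middle 50% lay between 4.62 and 23.6 RPKM, and 9871 of them (92.9%) were protein-coding. Just inside the limit lay B3glct (mean 1.0014 RPKM), Rpl5-ps2 (1.0021) and Rfx2 (1.0022), and just outside it lay Ltb4r1 (0.9999), Cttn (0.9987) and Fhdc1 (0.9983).

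The cells were sorted as Treg cells from the spleens of C57BL/6 mice of the WT genotype, with no treatment named, and each library held RNA combined from at least 3 mice. The same series holds 2 libraries of Treg cells with a conditional knockout of Nsd2, which were not analysed here, so no genotypes are compared. The labels name neither the age and sex of the mice nor the markers of the sort. RNA was read as single-end reads of 50 nt. With 2 pools of RNA there was no test: values are given for replicate 1 and then replicate 2, and a pair of neighbouring genes in an order is told apart only where their ranges over the 2 libraries do not overlap. Levels are compared between genes because RPKM is a value per length.

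Treg cells are the T cells that hold immune responses in check, and mice or people without the transcription factor Foxp3 develop fatal autoimmunity. They depend on interleukin 2 made by other T cells, which they capture with the high-affinity receptor whose alpha chain is Il2ra (CD25). The inhibitory receptor Ctla4 removes costimulatory ligands from antigen-presenting cells, and Ikzf2 encodes Helios, an Ikaros family factor common in thymus-derived Treg cells.

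All 4 marker genes were high. Foxp3 stood at 144 and 128 RPKM (136 ± 11.2, SD, n = 2), which was rank 281 of the 10624 genes. Ctla4 stood at 105 and 125 RPKM (rank 341), Il2ra at 104 and 112 RPKM (rank 374) and Ikzf2 at 60.9 and 73.5 RPKM (rank 731). The ranges of Ctla4 and Il2ra overlapped, Foxp3 lay above both, and Ikzf2 lay below the other 3. Foxp3 lies on chromosome X from 7579676 to 7595243 (GRCm38, the assembly that mm10 names), Ctla4 on chromosome 1 from 60909025 to 60915832, Il2ra on chromosome 2 from 11642792 to 11693194 and Ikzf2 on chromosome 1 from 69531207 to 69687351. The markers come from a list of 18 Treg genes, of which 18 were at or above 1 RPKM, and the highest of them was Izumo1r, the folate receptor 4 of Treg cells, at 422 and 356 RPKM.

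Most markers of other spleen cells were low or had no row, and the levels that remained moved in different directions between the libraries. Ms4a1, Pax5 and Ebf1 of B cells have no row here, and the 12 genes of the B cell list were led by Cd79b (5.56 and 4.23 RPKM), with 3 at or above 1 RPKM. Of 14 macrophage and monocyte genes 8 were at or above 1 RPKM, the highest being Hmox1 at 2.11 and 4.61 RPKM, and the list summed to 13.4 and 21.6 RPKM. Erythroid and platelet genes summed to 26.2 and 12.3 RPKM, with the globin gene Hba-a1 at 9.63 and 3.92 RPKM, granulocyte and mast cell genes to 2.40 and 3.14 RPKM, and stromal and endothelial genes to 5.60 and 4.63 RPKM. The CD8 T and NK cell list was led by Nkg7 (12.7 and 7.96 RPKM). In that list Cd8a was under 1 RPKM while Cd8b1 stood at 6.91 and 6.49 RPKM, and the list summed to 25.2 and 22.8 RPKM. The plasma cell list summed to 47.1 and 49.8 RPKM, made up mainly of Xbp1 (31.9 and 33.3 RPKM), Irf4 and Prdm1, factors that T cells also use, while Jchain and Sdc1 were under 1 RPKM. The dendritic cell list summed to 71.6 and 66.2 RPKM, nearly all of it Bst2 (70.8 and 65.1 RPKM). In bulk RNA, fewer cells of a type and less RNA per cell cannot be told apart, and the part of other cells in the levels below was not tested.

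The promoters of the genes at the top of the ranking are shown first, because the 20 highest genes were mostly parts of the translation machinery, whose transcripts are known to begin with a run of pyrimidines (C or T) near the start. The sequences are from RefSeq on GRCm38.p6, 25 bases before to 25 bases from the annotated start, 5′ to 3′ on the strand of the gene. Capitals mark a C followed by at least 5 pyrimidines that begins within 5 bases of the start. Shown are 6 of the 20 highest genes with such a run, picked for it, and 4 without: Rps15 and Eef2 of the translation machinery, and Tmsb4x and B2m. Rps4x and Rps16 had none either.
Eef1a1, chr9:78481700-78481749, minus strand: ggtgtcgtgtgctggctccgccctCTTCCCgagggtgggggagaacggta
Rps9, chr7:3704016-3704065, plus strand: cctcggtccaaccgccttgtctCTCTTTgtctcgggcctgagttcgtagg
Rpl18, chr7:45718046-45718095, plus strand: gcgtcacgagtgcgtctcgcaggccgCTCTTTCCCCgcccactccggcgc
Rpl13a, chr7:45128721-45128770, minus strand: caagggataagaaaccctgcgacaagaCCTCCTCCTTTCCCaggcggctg
Rps10, chr17:27635220-27635269, minus strand: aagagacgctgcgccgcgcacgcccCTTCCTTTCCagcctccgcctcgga
Rpl12, chr2:32961687-32961736, plus strand: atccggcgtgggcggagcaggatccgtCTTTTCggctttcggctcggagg
Rps15, chr10:80292406-80292455, plus strand: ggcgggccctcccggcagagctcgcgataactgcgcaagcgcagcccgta
Eef2, chr10:81176606-81176655, plus strand: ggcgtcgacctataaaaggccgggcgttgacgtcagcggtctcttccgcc
Tmsb4x, chrX:167209194-167209243, minus strand: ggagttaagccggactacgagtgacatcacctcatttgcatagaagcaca
B2m, chr2:122147662-122147711, plus strand: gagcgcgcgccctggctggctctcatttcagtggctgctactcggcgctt
Over 14731 protein-coding genes with exactly 1 promoter window in that table, 9.96% held such a run. The share was 18.7% of the 230 genes at or above 100 RPKM, 10.8% of 3284 genes from 10 to 100 RPKM and 10.3% of 2904 genes from 1 to 10 RPKM. It was 10.5% of 1745 genes with a row under 1 RPKM and 8.94% of 6568 genes with no row. Among ribosomal protein genes 22 of 49 windows (44.9%) held the run. Of the 79 ribosomal protein genes 73 were at or above 100 RPKM, so the share of 18.7% includes many of their windows. The share at that level without ribosomal protein genes was not counted. A run is a description of these letters and of the annotated start, not a measured start site.

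The second set of promoters belongs to the Treg markers, with Junb, the transcription factor of highest level among those with 1 window, beside them. Each runs from 250 bases before to 25 bases from the annotated start, and capitals mark CpG dinucleotides. Ikzf2 has no entry in the table. Foxp3 has 2 annotated windows, of which the one at the start of the gene is shown.
Foxp3, chrX:7579426-7579700, plus strand: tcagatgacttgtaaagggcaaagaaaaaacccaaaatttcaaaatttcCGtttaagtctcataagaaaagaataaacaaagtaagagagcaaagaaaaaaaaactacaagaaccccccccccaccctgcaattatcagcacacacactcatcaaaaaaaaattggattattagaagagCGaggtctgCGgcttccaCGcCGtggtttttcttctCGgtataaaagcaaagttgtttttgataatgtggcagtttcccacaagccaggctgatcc
Il2ra, chr2:11642542-11642816, plus strand: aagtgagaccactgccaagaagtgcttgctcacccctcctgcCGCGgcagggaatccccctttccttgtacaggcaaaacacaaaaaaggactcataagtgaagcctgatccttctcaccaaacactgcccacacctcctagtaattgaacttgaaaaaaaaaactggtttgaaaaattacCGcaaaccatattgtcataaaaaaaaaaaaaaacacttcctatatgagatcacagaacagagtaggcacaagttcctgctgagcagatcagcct
Ctla4, chr1:60908775-60909049, plus strand: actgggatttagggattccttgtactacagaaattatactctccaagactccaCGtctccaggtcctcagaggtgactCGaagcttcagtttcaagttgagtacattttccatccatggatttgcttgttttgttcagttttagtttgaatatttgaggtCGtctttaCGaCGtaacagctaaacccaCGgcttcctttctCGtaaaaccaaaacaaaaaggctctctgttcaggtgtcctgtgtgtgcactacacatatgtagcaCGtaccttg
Junb, chr8:84978724-84978998, minus strand: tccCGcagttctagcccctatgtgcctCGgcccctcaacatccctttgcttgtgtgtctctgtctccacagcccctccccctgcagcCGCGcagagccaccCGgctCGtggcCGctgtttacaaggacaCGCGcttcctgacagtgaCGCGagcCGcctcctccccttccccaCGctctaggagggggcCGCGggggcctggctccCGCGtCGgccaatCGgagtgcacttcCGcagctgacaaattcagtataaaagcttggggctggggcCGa
The stretches of Foxp3, Il2ra, Ctla4 and Junb held 6, 3, 8 and 21 CpG. That of Foxp3 has the letters TATAAA beginning 32 bases before the start. That of Junb has them beginning at the annotated start itself, and those of Il2ra and Ctla4 lack them. Members of the receptor class at or above 1 RPKM had few CpG in their windows of 300 bases: the median was 7 over 97 windows, and 34 of them (35.1%) held under 5. Secreted factors had a median of 9 over 43 windows, and 23.3% held under 5. Transcription factors had a median of 25 over 122 windows and enzymes of 23 over 263, with 3.28% and 5.32% under 5. Over all 6418 protein-coding genes at or above 1 RPKM with 1 window the median was 22 and 5.02% held under 5. The letters TATAAA between 40 and 15 bases before the start were present in 14% of the secreted factor windows, 3.28% of the transcription factor windows, 1.03% of the receptor windows and 0% of the enzyme windows, against 1.09% of those 6418 and 3.15% of all 14731. By level the share was 5.65% at or above 100 RPKM, 0.7% from 10 to 100 RPKM, 1.17% from 1 to 10 RPKM, 2.98% in genes with a row under 1 RPKM and 5.21% in those with no row. The sequence CCGGAAGT, bound by ETS factors and searched on both strands, was in 5.21% of all 14731 windows. It was in 8.26% of those at or above 100 RPKM, 11.9% from 10 to 100 RPKM, 8.64% from 1 to 10 RPKM, 2.29% of 1745 genes with a row under 1 RPKM and 1.02% of those with no row. A match is no evidence of binding.

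Expression was concentrated in few genes. The 10 highest genes held 6.92% of the RPKM sum of named genes, the 100 highest 26.8% and the 1000 highest 57.7%. At or above 1000 RPKM lay 26 genes, at or above 100 RPKM 422 genes (3.97% of the 10624, with 44.2% of the sum) and at or above 10 RPKM 5636 genes (53.0%). Eef1a1, the factor that brings aminoacyl-tRNA to the ribosome, led at 3774 and 4096 RPKM, followed by Actb (cytoplasmic actin) at 2428 and 2502 RPKM. After these came COX1 of the mitochondrial genome, the MHC class I heavy chain H2-K1, Tmsb4x (thymosin beta 4, which binds actin monomers), B2m (the MHC class I light chain), Rps9, Pfn1 (profilin), CYTB and Rpl18. Places 11 to 20 held Rps15, Rpl13a, Rpl8, Eef2, Rplp1, Rpl12, Rpl19, Rps4x, Rps16 and Rps10.

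**Figure D1:**
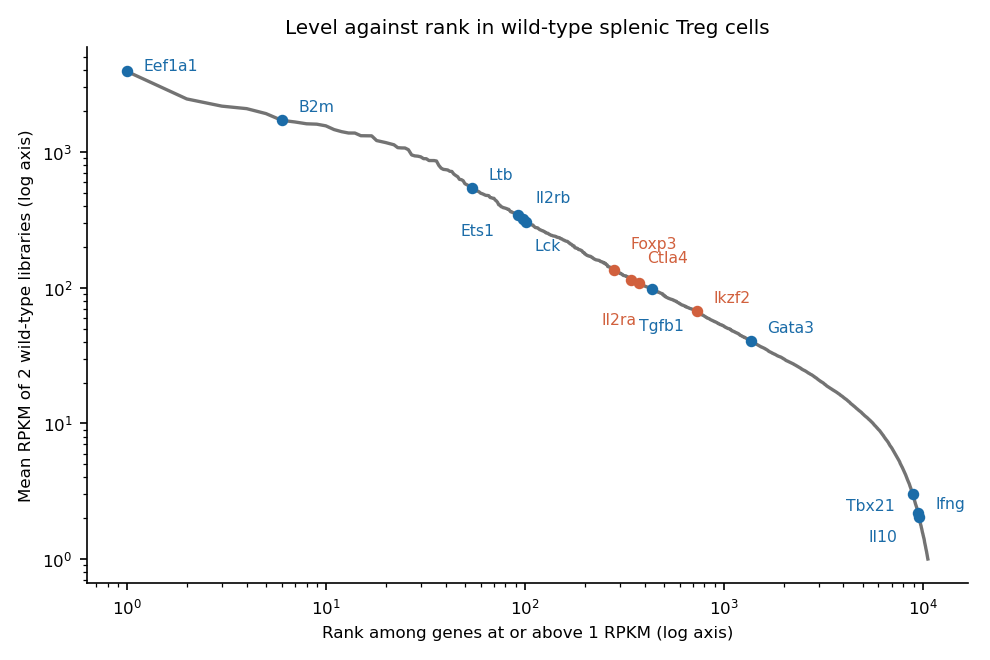
Mean RPKM of the 2 wild-type libraries (vertical log axis) against rank (horizontal log axis) for the 10624 genes at or above 1 RPKM. Orange points are the 4 Treg markers and blue points are examples named in the text; Foxp3 (rank 281) is the highest marker and Ikzf2 (rank 731) the lowest, and Il10, Ifng and Tbx21 lie at the lower end.

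The housekeeping groups accounted for much of this. The 79 ribosomal protein genes held 14.2% of the named RPKM sum (14.9% and 13.5%), with a median of 388 RPKM and 73 of them at or above 100 RPKM. The 30 cytoskeletal genes held 3.98%, the 36 elongation and initiation factors 2.97% and the 18 MHC class I and II genes at or above 1 RPKM 2.23%. The 10 mitochondrially encoded protein genes at or above 1 RPKM held 2.67%, with 2.07% in the first library and 3.29% in the second. Ribosomal protein genes, H2-K1 and H2-D1 have near-identical copies, so how the authors' counting split reads between copies makes their single values uncertain. The mitochondrial genes ATP6 (0.150 and 0.460 RPKM) and COX2 (0.0749 and 0.382 RPKM) were listed near 0 while COX1 stood at 1746 and 2617 RPKM, so single values of that genome are uncertain too.

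The 4 gene classes were taken from 46 lists of 1327 genes. As background, 9871 of 21900 protein-coding genes of the RefSeq table, 45.1%, were at or above 1 RPKM. Of 474 enzymes listed 416 were (87.8%), of 272 receptors 165 (60.7%), of 387 transcription factors 218 (56.3%) and of 194 secreted factors 62 (32%). The lists were drawn up around T cells and their families, so these shares describe the lists. The median level of members at or above 1 RPKM was 18.6 RPKM for receptors, 17.9 for transcription factors, 20.1 for enzymes and 12.1 for secreted factors, against 11.4 for all protein-coding genes above the same limit. At or above 100 RPKM lay 27 receptors (9.93% of those listed), 8 transcription factors (2.07%), 31 enzymes (6.54%) and 8 secreted factors (4.12%), against 1.82% of protein-coding genes. The classes held 2.74%, 2.14%, 5.08% and 1.38% of the named RPKM sum, in the order receptors, transcription factors, enzymes and secreted factors. B2m alone, at 1677 and 1752 RPKM, was the highest secreted factor of the lists, followed by Ltb, Srgn, Ppia (cyclophilin A, 158 and 196 RPKM) and Psap (prosaposin, 148 and 131 RPKM). With rows summed Psap was at 831 RPKM, above Ltb. As a sum of rows 189 of the 861 class members were over 1.5 times higher. The highest gene changed in 14 of the 46 lists. An order is given for the highest row, and some of its turns, not all, are named beside it. Of 2038 genes at or above 1 RPKM with 2 or more transcript rows, 1813 (89.0%) had a second row within 20% of the highest. A sum can thus grow with the number of rows, and whether such rows count the same reads was not tested. Of 816 pairs of neighbours within the lists, 438 (53.7%) overlapped in range: 67.0% in enzymes, 46.8% in transcription factors, 35.7% in receptors and 32.1% in secreted factors.

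The list of the T cell antigen receptor complex and coreceptors was the highest. It also holds other surface proteins, such as Cd2, Ptprc, Thy1, Cd5 and Cd6. Of its 12 members 11 were at or above 1 RPKM, with a median of 226 RPKM, the level of Cd5. Cd2, an adhesion receptor, stood at 275 and 259 RPKM, Ptprc, the phosphatase CD45, at 243 and 285 RPKM and Cd3e, a signalling chain of the complex, at 249 and 266 RPKM. These 3 overlapped one another in range, and the next, Cd3g (224 and 254 RPKM), overlapped Ptprc and Cd3e but lay below Cd2. With rows summed Ptprc (517 RPKM) and Cd6 (322 RPKM) were above Cd2. The coreceptor Cd4 stood at 178 and 186 RPKM, below Cd5 (232 and 219 RPKM), which dampens antigen signals. Cd3d (155 and 152 RPKM) and Cd247, the zeta chain (102 and 102 RPKM), were lower than Cd3e and Cd3g, although all 4 chains serve 1 complex. With rows summed Cd247 was at 207 RPKM, nearer to Cd3g (239 RPKM) but still below it. Of the exon bases of Cd247, 64.0% overlap Pou2f1 on the other strand (mean 9.64 RPKM), and no source used here says whether the counting used strand.

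The common gamma chain receptors were all present, 8 of 8. The 3 chains of the interleukin 2 receptor took the first 3 places: Il2rb, the beta chain, stood at 351 and 334 RPKM, Il2rg, the common gamma chain, at 242 and 272 RPKM and Il2ra at 104 and 112 RPKM. Their ranges did not overlap, so the chain that defines the high-affinity receptor was the lowest of the 3. Il7r (94.2 and 98.9 RPKM) and Il21r (85.9 and 84.8 RPKM) followed, also in separate ranges, while the interleukin 15 alpha chain Il15ra stood at only 5.76 and 5.69 RPKM and Il9r at 3.69 and 2.08 RPKM. In the annotation 43.6% of the exon bases of Il2rg are shared with the same-strand gene Gm20489, which has no row here.

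Other cytokine receptors were split more evenly, with 14 of 32 at or above 1 RPKM. Ifngr1, the ligand-binding chain for interferon gamma, stood at 80.0 and 128 RPKM, the widest ratio among the 4 highest genes of each receptor list, while its partner Ifngr2 stood at 18.2 and 18.7 RPKM. Il27ra (99.1 and 87.4 RPKM) overlapped Ifngr1, and the interleukin 6 receptor chains Il6ra (73.8 and 67.4 RPKM) and Il6st (55.6 and 58.7 RPKM) came next in separate ranges. Il12rb1 stood at 16.4 and 10.9 RPKM, whereas Il12rb2 (mean 0.395 RPKM) and Il23r, the chains that pair with it for interleukin 12 and interleukin 23, were under 1 RPKM. In the interleukin 1 and 17 families the leading genes were Il17ra (61.6 and 53.9 RPKM) and Sigirr, an inhibitory member (50.5 and 43.4 RPKM). The decoy Il1r2 (5.49 and 5.72 RPKM) was above the signalling receptor Il1r1, which stood at 0.0324 and 0.0551 RPKM. Tgfbr2 (60.8 and 71.2 RPKM) was above its partner Tgfbr1 (12.9 and 17.4 RPKM).

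Costimulatory and inhibitory receptors were broadly present, 20 of 23, with Ctla4 alone at the top and not overlapping the next. Ly9 followed at 61.9 and 64.3 RPKM, although Vsir passed it with rows summed (103 RPKM). Cd28, the costimulator that shares its ligands with Ctla4, stood at 46.0 and 61.4 RPKM and overlapped Vsir (52.2 and 51.0 RPKM), which encodes the inhibitory receptor VISTA. The inhibitory receptors Tigit (47.2 and 38.7 RPKM), Pdcd1 (38.5 and 38.4 RPKM) and Btla (30.7 and 34.0 RPKM) and the costimulator Icos (35.3 and 42.7 RPKM) lay in the middle. Lag3 was lower at 14.9 and 13 RPKM, and Havcr2, which encodes TIM-3, was under 1 RPKM at 0.959 and 0.709.

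In the TNF receptor superfamily 14 of 23 members were at or above 1 RPKM and the first 5 were told apart. Cd27 led at 173 and 170 RPKM, then Tnfrsf18 (GITR) at 130 and 116 RPKM, Tnfrsf4 (OX40) at 107 and 102 RPKM, Tnfrsf1b (TNF receptor 2) at 62.9 and 53.5 RPKM and Tnfrsf25 (DR3) at 52.9 and 42.4 RPKM. With rows summed Tnfrsf9 (104 RPKM) was above Tnfrsf1b. TNF receptor 1, Tnfrsf1a, stood at 15 and 13.7 RPKM, below Tnfrsf1b in both libraries. Ltbr and Cd40, receptors that B cells, myeloid cells or stroma carry, were under 1 RPKM. Tnfrsf13c was also under 1 RPKM and Tnfrsf17 has no row here. Not every receptor of this kind was low, since Tnfrsf13b, which B cells carry, had a mean of 9.91 RPKM.

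A few homing and adhesion genes reached the level of the antigen receptor genes, but the medians were lower: 18.4 RPKM for integrin chains (13 of 26 at or above 1 RPKM), 27.9 RPKM for other adhesion molecules (13 of 16) and 13.2 RPKM for chemokine receptors. Itgb7, the beta chain shared by the gut-homing integrins, was the highest integrin chain at 302 and 253 RPKM, above Itgb2 (203 and 178 RPKM) and Itgal (179 and 155 RPKM), which together form LFA-1 and overlapped in range. The alpha partners of Itgb7 were lower: Itga4 stood at 46.9 and 60.4 RPKM and Itgae, the CD103 chain, at 17.7 and 14.8 RPKM. Selplg, the ligand of P-selectin, stood at 250 and 199 RPKM and Cd44 at 16.2 and 21 RPKM (99.6 RPKM with rows summed). Among 23 chemokine receptors 12 were at or above 1 RPKM. The lymph node receptor Ccr7 (123 and 115 RPKM) and Cxcr4 (102 and 94.6 RPKM) were far above Cxcr3 (32.1 and 23 RPKM), Ccr8 (19.5 and 16.5 RPKM), Cxcr5 (16.6 and 17.1 RPKM), Ccr4 (14.4 and 14.3 RPKM) and Ccr6 (11.8 and 12.1 RPKM; 78.3 RPKM with rows summed). The egress receptor S1pr1 stood at 116 and 129 RPKM and S1pr4 at 89.7 and 80.0 RPKM, while S1pr2 was at 5.79 and 4.88 RPKM and S1pr3 and S1pr5 have no row here.

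Of 56 other G protein-coupled receptors 30 were at or above 1 RPKM, led by Adgre5 (CD97, an adhesion receptor) at 147 and 139 RPKM. Gpr83, a receptor common in Treg cells, stood at 66.3 and 51.2 RPKM, and the adenosine receptor Adora2a stood at 28.5 and 19.2 RPKM. Sting1, the adaptor of DNA sensing, led the pattern recognition list at 82.5 and 76.5 RPKM, but Cgas, the enzyme that makes its ligand, stood at 2.11 and 2.21 RPKM. Of the Toll-like receptors Tlr1 was highest at 26.6 and 30.0 RPKM, and Tlr3, Tlr4, Tlr5, Tlr8 and Tlr9 were under 1 RPKM.

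**Figure D2:**
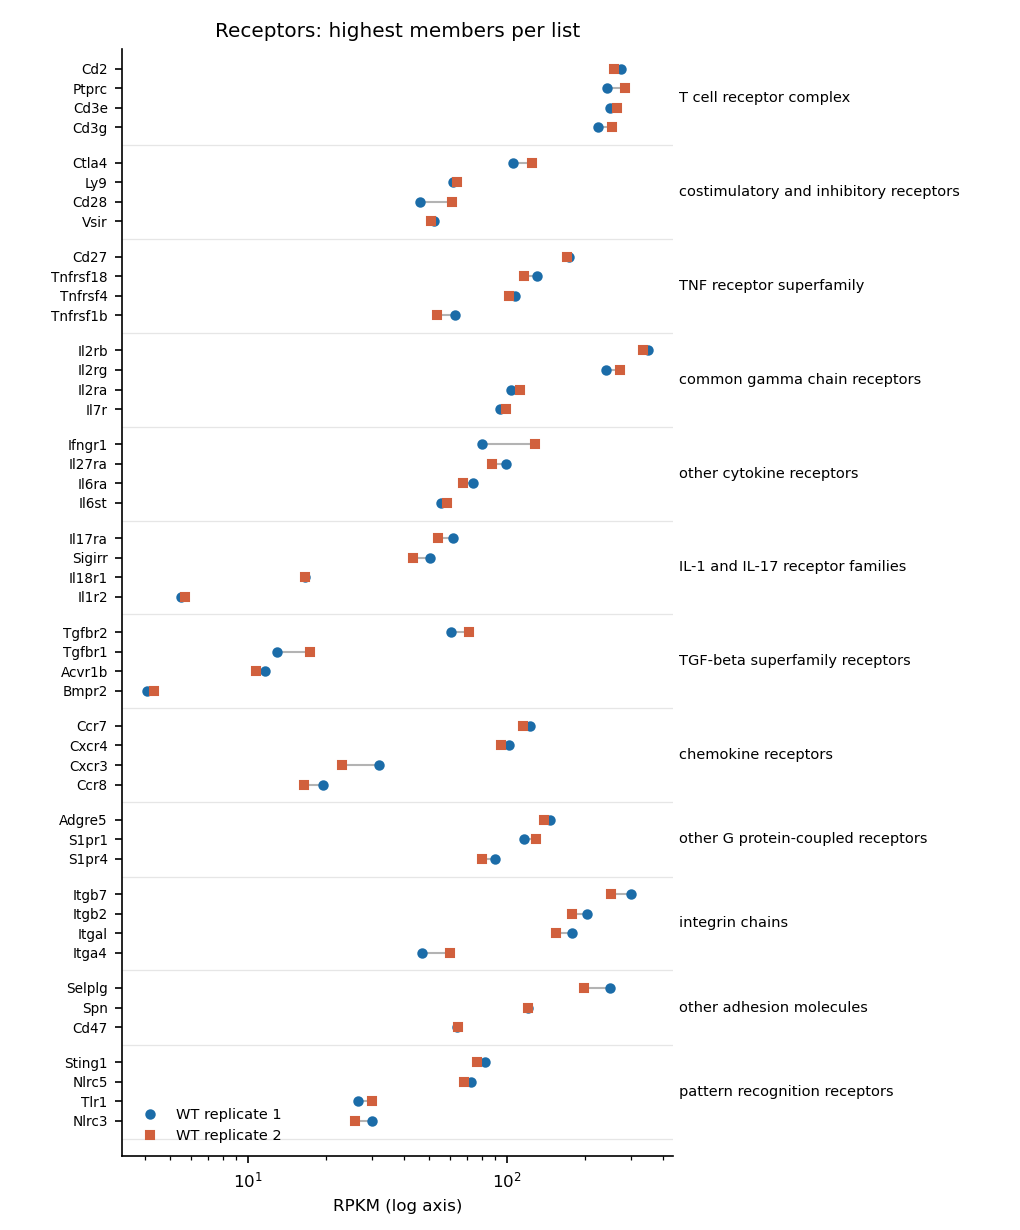
RPKM (horizontal log axis) in WT replicate 1 (blue circles) and WT replicate 2 (orange squares) for the 4 highest members of each of 12 receptor lists, less a few genes not reported here, with a grey line joining the pair. Cd2, Ptprc, Cd3e and Cd3g lie close together, Il2rb lies above Il2rg and Il2ra, and Ifngr1 (80.0 and 128 RPKM) has the widest gap on the log axis.

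Transcription factors were led by Ets1, Tcf7, Junb, Klf2 and Jund, with Foxp3 in the next place, when the highest transcript row of each gene was kept. With rows summed Ets1 still led (639 RPKM), but Nfatc1 (291 RPKM) and Irf1 (273 RPKM) were above Tcf7, and Satb1 (225 RPKM), Stat3 (184 RPKM), Cbfb (170 RPKM), Hopx (163 RPKM) and Irf9 (160 RPKM) were among those above Foxp3. Ets1, an ETS factor needed by resting T cells, stood at 314 and 328 RPKM. Tcf7, which encodes TCF-1, stood at 251 and 254 RPKM, Junb, an AP-1 subunit, at 257 and 224 RPKM, Klf2, which drives the egress receptor S1pr1, at 218 and 199 RPKM and Jund at 187 and 182 RPKM. Ets1 lay apart from all of these, while Junb and Tcf7 overlapped. Irf1 stood at 114 and 110 RPKM, and 8 listed factors in all were at or above 100 RPKM. Of the exon bases of Jund, 52.6% overlap Gm11175 on the opposite strand, which has no row here.

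Families differed in how many members were present. All 7 STAT factors, all 9 IRF factors and all 9 genes of the Ikaros, Runx and Cbfb list were at or above 1 RPKM, as were 9 of 10 NF-kB and NFAT factors. Of forkhead factors 13 of 37 were, of HMG-box factors 9 of 28 and of GATA and T-box factors 5 of 19, and the present members of the first 2 lists had medians of 25.6 and 23.2 RPKM. In the forkhead family Foxp3 was followed by Foxo1 (57.8 and 65.8 RPKM) and Foxp1 (49.5 and 62.4 RPKM), which overlapped, and 21 members, among them Foxa1, Foxa2 and Foxp2, have no row here. Ikzf1 (Ikaros, 75 and 77.0 RPKM), Ikzf3 (Aiolos, 78.3 and 65.4 RPKM) and Ikzf2 lay close together: Ikzf3 overlapped both of the others, while Ikzf1 lay above Ikzf2. Ikzf4 (Eos) stood at 41.4 and 38.1 RPKM. Runx1 (20.3 and 21.3 RPKM) and Runx3 (19.9 and 18.7 RPKM) did not overlap, by a narrow gap, and Runx2 stood at 3.34 and 2.89 RPKM.

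Factors that mark helper T cell fates differed widely in level. Gata3, of T helper 2 cells, stood at 42.9 and 37.7 RPKM and Maf at 37.9 and 34.7 RPKM. Bcl6, of follicular helper cells, stood at 10.1 and 9.71 RPKM and Tbx21 (T-bet) at 3.53 and 2.48 RPKM. Gata3 was more than 10-fold above Tbx21 by their means. The effector factors Irf4 (11.1 and 12.6 RPKM), Batf (52.4 and 40 RPKM) and Prdm1 (Blimp-1, 3.84 and 3.54 RPKM) were also uneven. Gata1, an erythroid factor, was listed at 15.5 and 10.5 RPKM. Of the 14 erythroid and platelet genes 4 were at or above 1 RPKM and lower in replicate 2, as Gata1 was: Hba-a1 (9.63 and 3.92 RPKM), Hbb-bt (6.47 and 3.25 RPKM), Hba-a2 (6.46 and 2.78 RPKM) and Alas2 (1.78 and 1.49 RPKM). The part of erythroid RNA in the level of Gata1 was not tested.

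Signal-responsive factors added a further group. Nfkb1 (90.9 and 95.3 RPKM) was above Nfatc1 (56.3 and 46.3 RPKM) and Rela (53.9 and 46.2 RPKM), which overlapped, and Rel stood at 15 and 19.4 RPKM. With rows summed the order turned, with Nfatc1 at 291 RPKM above Nfkb1, and Stat3 at 184 RPKM above Stat6. Stat6 (67.0 and 73.1 RPKM), Stat3 (62.2 and 61.0 RPKM) and Stat5b (51.7 and 49.1 RPKM) lay in separate ranges, and Stat5a, the close paralog of Stat5b, stood at 24.8 and 26.3 RPKM. Nr4a1, induced by antigen receptor signals, stood at 54.5 and 48.4 RPKM, Egr1 at 30.7 and 27.2 RPKM and Myc at 69.3 and 57.0 RPKM. Fos was at 11.7 and 14 RPKM and its partner Jun at 12.8 and 23.3 RPKM, both far below Junb and Jund. In the Smad list, the inhibitory Smad7 (34.6 and 38.3 RPKM) was above Smad4 (27.7 and 29.3 RPKM), Smad3 (17.7 and 18.7 RPKM) and Smad2 (12.4 and 15.1 RPKM), all in separate ranges. Zbtb7b, the factor of the CD4 lineage known as ThPOK, stood at 83.8 and 64.5 RPKM and Bcl11b at 76.2 and 70.7 RPKM.

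**Figure D3:**
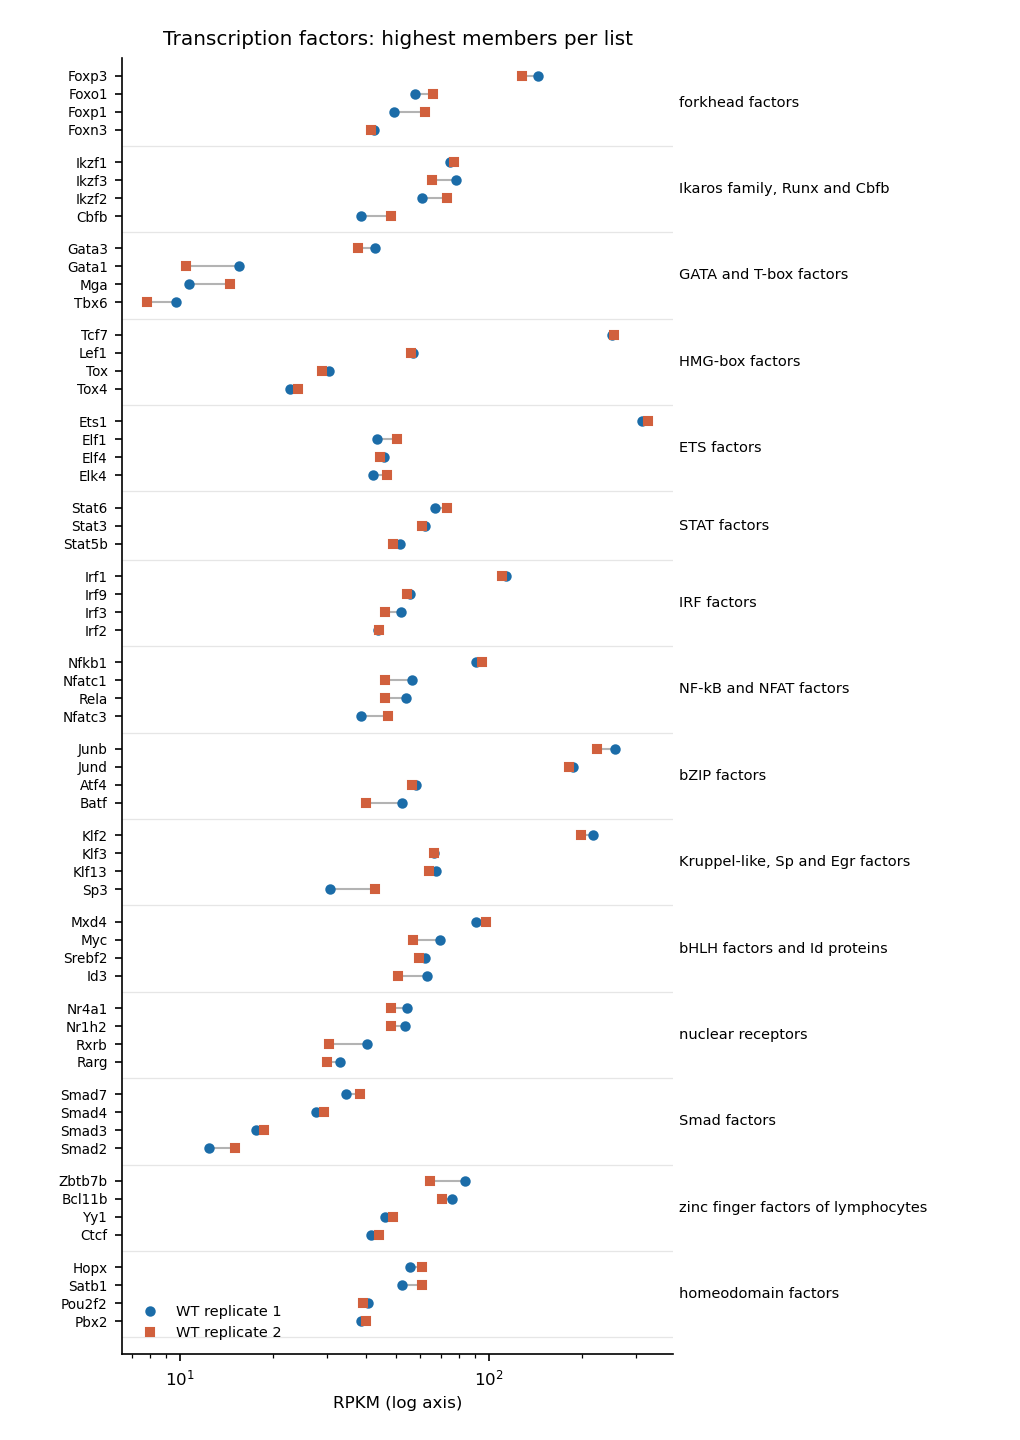
RPKM (horizontal log axis) in WT replicate 1 (blue circles) and WT replicate 2 (orange squares) for the 4 highest members of each of 15 transcription factor lists, less 1 gene not reported here. Ets1, Tcf7, Junb and Klf2 lie above Foxp3, and Gata3 lies above Gata1, the second of the GATA and T-box list.

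Enzymes of antigen and cytokine signalling were among the highest of their class. The Src family kinase Lck, which starts antigen receptor signalling, stood at 325 and 283 RPKM, apart from Zap70 (160 and 125 RPKM), Csk, which restrains Lck (144 and 140 RPKM), and Jak1 (135 and 147 RPKM), which overlapped. Fyn stood at 132 and 120 RPKM and Jak3, the kinase bound to the common gamma chain, at 119 and 84.1 RPKM, against 23.2 and 26.9 RPKM for Jak2. Kinases of B cells and myeloid cells were low: Syk stood at 1.17 and 0.972 RPKM, and Lyn, Fgr, Blk and Btk were under 1 RPKM. All 75 serine/threonine and lipid kinases listed were at or above 1 RPKM. Dgka and Dgkz, which remove the second messenger diacylglycerol, led them at 300 and 280 RPKM and at 168 and 144 RPKM, followed by Pim1 (155 and 133 RPKM) and Pik3cd (147 and 129 RPKM). With rows summed Pik3cd led, and Dgkz (292 RPKM) was level with Dgka. Among the catalytic chains of class I phosphoinositide 3-kinase, Pik3ca (9.34 and 11.7 RPKM), Pik3cg (8.24 and 9.72 RPKM) and Pik3cb (1.68 and 2.02 RPKM) were all far below Pik3cd, and Pik3cg passed Pik3ca with rows summed (26.7 RPKM).

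With the highest transcript row of each gene kept, the GTPase list held the highest enzyme of the 13 lists. With the rows of a gene summed, Lck (888 RPKM), Pik3cd (792 RPKM) and Gimap4 (576 RPKM) were above Gimap3. Gimap3, of a family that supports lymphocyte survival, stood at 515 and 472 RPKM, Gimap4 at 266 and 318 RPKM and Gimap6 at 217 and 225 RPKM. Rac2, the Rac form of blood cells, stood at 316 and 263 RPKM, above Rac1 (75.5 and 93.9 RPKM), 54.8% of whose exon bases overlap Daglb on the opposite strand (mean 4.45 RPKM). Phosphatases were led by Ppp1ca at 236 and 221 RPKM. Ptpn6 (SHP-1) stood at 95.3 and 90.4 RPKM and Ptpn22 at 53.5 and 67.0 RPKM.

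The ectoenzymes that make adenosine from extracellular ATP were unequal. Nt5e (CD73), which takes the last step, stood at 55.9 and 62.7 RPKM, while Entpd1 (CD39), which takes the first, stood at 7.47 and 7.79 RPKM. Entpd2 was under 1 RPKM and Entpd3 has no row here. Chromatin enzymes were present almost throughout, with 51 of 53 histone and DNA methyltransferases and demethylases and 28 of 28 acetyltransferases, deacetylases and sirtuins at or above 1 RPKM. The H3K4 methyltransferase gene Kmt2d led at 105 and 92.3 RPKM, and Ehmt2 stood at 63.5 and 48.7 RPKM (109 RPKM with rows summed). With rows summed Kmt5b (125 RPKM) was above both. Of the polycomb methyltransferases, Ezh1 (18.6 and 17.7 RPKM) was above Ezh2 (13 and 12.7 RPKM), an order that turned with rows summed (Ezh2 25.6 RPKM), and Tet3 (38.4 and 32.5 RPKM) was above Tet2 (8.50 and 9.50 RPKM) and Tet1 (1.28 and 1.39 RPKM). The NSD family stood in the order Nsd3 (58.7 and 60.8 RPKM), Nsd1 (29.4 and 30.5 RPKM) and Nsd2 (6.82 and 7.44 RPKM), in separate ranges. Nsd2 was thus the lowest of the 3 in the unperturbed cells.

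Metabolic enzymes were unequal between paralogs. In glycolysis 18 of 23 genes were at or above 1 RPKM. Ldha (234 and 235 RPKM) and Pkm (206 and 172 RPKM) were at the top in separate ranges, then Gpi1 (144 and 125 RPKM). With rows summed Aldoa (376 RPKM) was above Pkm. Hexokinase was nearly all Hk1 (41.7 and 38.6 RPKM), with Hk2 at 1.39 and 1.48 RPKM and Hk3 under 1 RPKM, and Ldhb (14.3 and 15.1 RPKM) was far below Ldha. The citric acid cycle list, with 24 of 25 members, had a median of 28.1 RPKM and was led by Mdh2 (100 and 99.3 RPKM). Samhd1, which breaks down deoxynucleotides, stood at 245 and 242 RPKM, apart from Aprt (52.7 and 40.9 RPKM), the next gene of the nucleotide and folate list. The 31 members of that list had a median of 16.2 RPKM, and Tyms, which makes thymidylate, stood at 2.29 and 2.98 RPKM. In the proliferation list 29 of 30 members were at or above 1 RPKM with a median of 5.03 RPKM. Pcna, the sliding clamp of DNA replication, led it at 82 and 86.2 RPKM, followed by the replicative helicase subunits Mcm6 (31.7 and 35.5 RPKM), Mcm7 (28.2 and 25.4 RPKM) and Mcm2 (25.7 and 21.5 RPKM), and Mki67 stood at 10.6 and 10.7 RPKM.

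Secreted factors were the sparsest class. Of 45 interleukins and related cytokines 10 were at or above 1 RPKM, of 34 chemokines 3 and of 41 growth factors of the TGF-beta and other families 7. Mif (123 and 108 RPKM) and Il16 (66.8 and 73.4 RPKM), which T cells make constitutively, led the interleukin list, followed by Flt3l (44.9 and 39.4 RPKM) and Clcf1 (38.5 and 32.9 RPKM). The suppressive cytokine Il10 stood at 1.96 and 2.44 RPKM and Ifng at 2 and 2.08 RPKM, and their ranges overlapped. Ebi3, a chain of interleukin 35, stood at 13 and 10.5 RPKM, while Il12a, the other chain, has no row here. Il2, Il5, Il17a, Il17f and Il22 have no row here, and Il4, Il13 and Il21 were under 1 RPKM.

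Tgfb1, the suppressive cytokine that Treg cells make in latent form, was by contrast high at 101 and 94.6 RPKM, and Tgfb2 and Tgfb3 were under 1 RPKM. Lrrc32, which encodes GARP, the protein that holds latent TGF-beta on the Treg surface, stood at 97.1 and 79.7 RPKM, and Itgb8, a chain of the integrin that releases it, at 5.58 and 5.65 RPKM. Penk, an enkephalin precursor, stood at 38.5 and 32.6 RPKM. Ltb, a membrane-bound lymphotoxin chain, was the highest TNF ligand at 602 and 487 RPKM, apart from Lta (31.3 and 28.9 RPKM) and Tnfsf8 (22.8 and 31.0 RPKM), which overlapped. Of granule genes the proteoglycan Srgn stood at 210 and 230 RPKM, but Gzmb was at 4.44 and 4.31 RPKM, Prf1 at 4.12 and 5.80 RPKM and Gzma has no row here. Lgals1 (100 and 73.4 RPKM) and Lgals9 (61.3 and 58.2 RPKM) were the highest galectins, with Lgals9 above Lgals1 when rows were summed (117 RPKM). The 3 chemokines were Ccl5 (7.22 and 4.71 RPKM), Cxcl10 (2.89 and 2.06 RPKM) and Ccl25 (2.18 and 1.11 RPKM).

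Over 34 chosen pairs, transcripts of receptors were present more often than those of their ligands. All receptor chains were at or above 1 RPKM for 29 of the 34, but the ligand was so for 12. As background, single genes reached that limit in 60.7% of receptors listed, 32% of secreted factors listed and 45.1% of protein-coding genes. The pairs were picked and not drawn from all pairs, so the counts describe this choice. Of the other ligands 12 had a row under 1 RPKM and 10 have no row here. Receptor without ligand was the state of 20 pairs. For interleukin 7, Il7r and Il2rg had means of 96.6 and 257 RPKM while Il7 stood at 0.0621 and 0.0211 RPKM. Ligand and receptor were both present in 9 pairs, among them Il16 with Cd4, Tgfb1 with Tgfbr1 and Tgfbr2, Tnf (15.3 and 13.4 RPKM) with its 2 receptors, and Il10 with Il10ra (29.6 and 22.2 RPKM) and Il10rb (25.9 and 29.9 RPKM). The reverse held for 3 ligands, among them Ltb, whose receptor Ltbr stood at 0.147 and 0 RPKM, and Cd40lg (9.39 and 12.8 RPKM), whose receptor Cd40 stood at 0.0862 and 0.293 RPKM. These are transcript levels, not protein or secretion.

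**Figure D4:**
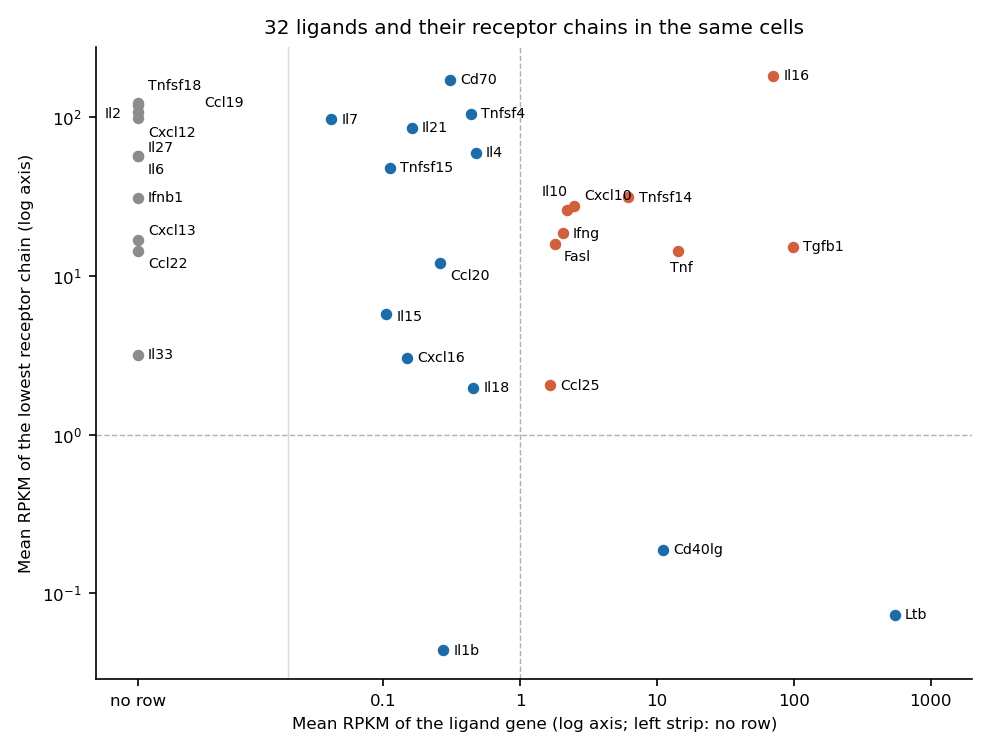
Mean RPKM of the gene of the lowest receptor chain (vertical log axis) against that of the ligand (horizontal log axis; grey points in the strip at the left are ligands with no row) for 32 of the 34 pairs, the other two not being reported here, with dashed lines at 1 RPKM. Orange marks the 9 pairs with both at or above 1 RPKM; most points lie at upper left, and Ltb and Cd40lg lie at lower right.

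The 2 libraries agreed in order but not in every group of genes. Over the 10624 genes Pearson's r of log2(RPKM + 1) was 0.9823 and Spearman's rho 0.9811, as a description across genes of 1 cell type. At least 1.5-fold higher in replicate 2 than in replicate 1, on RPKM + 1, were 236 genes (2.22%), and 150 (1.41%) were at least 1.5-fold lower. The median ratio between the libraries was 1.23 for genes from 1 to 2 RPKM and 1.13 for genes at or above 100 RPKM. Small RNAs and T cell receptor segments were among the largest ratios: Rnu1a1 stood at 1.38 and 33.9 RPKM, Rnu2-10 at 1.92 and 35.7 RPKM, and in the other direction TrnG stood at 46.7 and 6.91 RPKM and Trav10 at 7.32 and 1.24 RPKM. The difference moved with GC content of the transcript (Pearson's r -0.64 and Spearman's rho -0.69 over 9988 genes, a description). In the fifth of lowest GC 89.7% of genes were higher in replicate 2, and in the fifth of highest GC 10.2%.

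Heat shock genes were the list with the most genes past 1.5-fold, by number and not by share. Of 37 heat shock proteins and co-chaperones at or above 1 RPKM, 31 were higher in replicate 2, 11 of them at least 1.5-fold, and 1, Fkbp5, was at least 1.5-fold lower (37.5 and 23.7 RPKM). Hsph1, a chaperone of the HSP110 family, stood at 40.1 and 104 RPKM, Hsp90aa1, the inducible HSP90, at 97.7 and 229 RPKM and Chordc1, an HSP90 partner, at 32.2 and 70.5 RPKM. Hspa1b, an inducible HSP70, stood at 1.44 and 4.78 RPKM. The median difference of the list in log2(RPKM + 1), replicate 2 minus replicate 1, was 0.43, against -0.01 for all 10624 genes. With the median of genes of like GC content subtracted it was 0.31, with 12 genes at least 1.5-fold higher and 0 lower. The 8 macrophage and monocyte markers at or above 1 RPKM were also higher in replicate 2, 1 of them at least 1.5-fold, with a median of 0.42. The 4 erythroid and platelet genes were lower, 3 of them at least 1.5-fold, with a median of -0.90. Of all 10624 genes 5095 were higher in replicate 2, of mitochondrially encoded protein genes 10 of 10 and of MHC genes 1 of 18. The MHC genes had a median GC content of 55.9% and a median difference of -0.25, which was -0.11 after subtracting the median of genes of like GC content. Their part in the levels of other genes was not tested, and with 1 pool each, mice, handling and library preparation cannot be told apart.

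**Figure D5:**
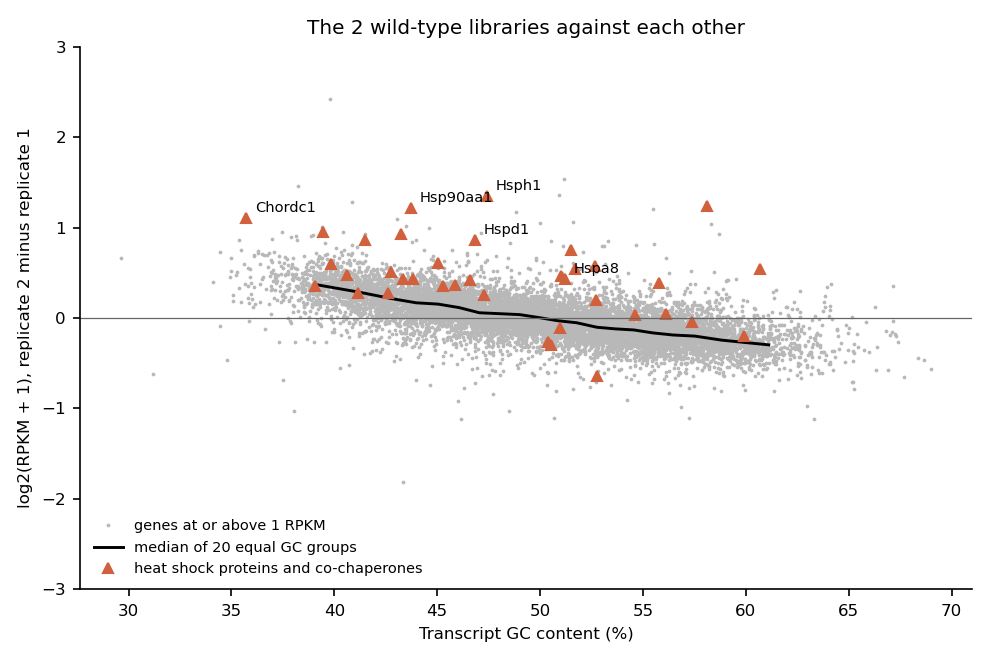
Difference in log2(RPKM + 1) between WT replicate 2 and WT replicate 1 (vertical axis) against transcript GC content in percent (horizontal axis) for 9988 genes (grey; 3 genes beyond 3 are not drawn), with the median of 20 GC groups of equal size (black line). Heat shock proteins and co-chaperones (orange triangles) lie mostly above the line, with Hsph1, Hsp90aa1 and Chordc1 above 1.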

How the data were processed

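RNA-seq was measured in 2 WT libraries of sorted splenic Treg cells, grouped by their labels. The authors deposited RPKM values per RefSeq transcript. The tools HISAT2 and DESeq2 and the build mm10 appear per the submitters' processing notes, without versions. No source used here names the counter or says whether it used strand. That the values are read counts divided by length and a constant was checked on the files with GENCODE M21 lengths. The depths that put low values closest to whole reads were 19500000 and 19100000 reads. At these fitted depths 63.3% and 64.7% of low values lay within 0.1 of a whole read. At other depths the median was 16.8% and 16.6%. The check cannot show that the constant is the number of mapped reads. A transcript of 2 kb at 1 RPKM then held 39.1 and 38.2 reads, a counting error of about 16%.

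Of 19291 rows, 16720 were matched by accession and 910 by name to RefSeq genes of GRCm38.p6, 492 kept the name in the file, and 1169 with no gene name (10.9% of the RPKM sum) were left out. A gene with no row was not taken as 0. Exon overlaps came from the GENCODE M21 basic annotation. The 2 libraries were compared as log2(RPKM + 1), counted past a 1.5-fold difference, with no test. Of the 861 class members at or above 1 RPKM, 34 share at least 25% of their exon bases with another gene.

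The genes and lists were chosen with earlier results of these data known. Named were the 20 highest genes, 4 markers, the 4 highest of each list and further members at or above 20 RPKM, their paralogs, ligands and receptor chains, and genes of large ratio between libraries at a mean of at least 4 RPKM. Other members named under 20 RPKM (among them Lag3, Irf4, Bcl6, Ezh1, Ezh2, Entpd1, Il10 and Ifng) were chosen after their values were seen. Some genes are not reported here. The functions that count genes and find depth were tested on simulated data. Python 3.11.15, numpy 2.4.6, pandas 2.3.3 and matplotlib 3.10.9 were used.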

Additional observations from a re-analysis of the deposited data

How the results depend on the processing

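The class counts at or above 1 RPKM stayed within 1.5 times of the reported counts under each alternative run except for secreted factors, which were 115 with no filter against 62. Medians moved more, in the order receptors, transcription factors, enzymes and secreted factors. They were 24.7, 20.3, 24.4 and 12.4 RPKM with the distinct transcript rows of a gene summed. With each library rescaled to the same fixed sum, as TPM values are, they were 37.6, 40.1, 43.9 and 14.4. That rescaling multiplied replicate 1 by 2.32 and replicate 2 by 2.35, and the limit of 1 was applied after it. With a limit of 0.5 RPKM they were 16.7, 17.3, 19.2 and 6.45, and with no filter 6.61, 12.7, 17.9 and 1.30. With at least 1 RPKM required in each library the medians were 19.3 for receptors, 18.0 for transcription factors and 12.7 for secreted factors. Leaving out either replicate gave medians of 18.9 to 19.3 for receptors, 17.9 to 18.1 for transcription factors, 19.5 to 20.4 for enzymes and 12.4 to 12.7 for secreted factors. Genes at least 1.5-fold apart between the libraries numbered 386, and 671 with a pseudocount of 0.1 RPKM. They numbered 138 (79 higher and 59 lower in replicate 2) with the median of genes of like GC content subtracted, an alternative chosen after seeing the data. As a sum of rows 1945 members (18.3%) were over 1.5 times higher, 47 of them among the 241 genes made up of the 20 highest, the markers and the 4 highest of each list. No paired analysis was possible because there is 1 group and no test. With 2 libraries, each a pool, the spread may be technical, and at 1 RPKM counting error alone is about 16% on a 2 kb transcript. The causes of these shifts were not tested.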
